A study of Mus musculus with 8 samples.

Results

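Insulin and insulin-like growth factor (IGF) signalling was examined through 9 genes chosen by name: the ligand gene Igf1, the binding protein gene Igfbp4, the receptor genes Igf1r and Insr, the adaptor genes Irs1 and Irs2, and the transcription factor genes Foxo1, Foxo3 and Foxo4. They had 20 of the 39429 probes and were 9 of the 30325 gene names on the arrays. The samples were lower crypts of the mouse jejunum, the base of the intestinal gland, cut from fixed sections by laser capture and measured on 8 single-colour Agilent arrays with 1 mouse each. The fasted group was 4 mice kept without food for 24 h and then injected with 80 mg/kg etoposide, which poisons topoisomerase II and so breaks DNA. The fed group was 4 mice injected with the same dose without a fast. All 8 mice were 4 to 6 weeks old, carried the Lgr5EGFP-IRES-CreERT2/+ stem cell reporter, a knock-in at Lgr5 with a single intact copy of that gene left, had moistened food in the cage after the injection and were sampled 3 h after it. The labels give 2 male and 2 female mice per group. Every array therefore came from an etoposide-treated reporter mouse, and fasting cannot be told apart from the feeding allowed after it.

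Insulin and IGF1 bind related receptor tyrosine kinases, encoded by Insr and Igf1r. The activated receptors phosphorylate the adaptors IRS1 and IRS2, which recruit PI3-kinase and switch on AKT. AKT in turn phosphorylates FoxO transcription factors and keeps them out of the nucleus, so FoxO proteins act on their target genes when insulin is low. In liver, Irs2 is a known FoxO target that fasting induces. In the gut, IGF1 comes largely from the mesenchyme around the crypt and is known as a growth signal for the epithelium.

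The sequences shown are those of the 2 genes whose fasted and fed arrays did not overlap, Igf1r and Irs2, and of Irs1, the close relative of Irs2. The Irs2 probe covers coding sequence near the end of the reading frame, at chr8:11004490-11004549 on the minus strand of mm9, and measured the transcript through these 60 bases.
Irs2 probe: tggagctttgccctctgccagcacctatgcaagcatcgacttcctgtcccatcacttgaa
RefSeq promoter windows of GRCm38.p6, from 250 bases before to 50 bases after the annotated start, were on hand for 7 of the 9 genes, all but Insr and Foxo4. Capitals mark the motifs searched on both strands: the insulin response core CAAAACA, which reads as TGTTTTG on the other strand. The others were the FoxO element, letters GTAAACA, the E-box, letters CACGTG, and the GC box, letters GGGCGG. The windows lie at chr7:67952007-67952306 on the plus strand for Igf1r, at chr8:11008880-11009179 on the minus strand for Irs2 and at chr1:82291390-82291689 on the minus strand for Irs1, each read 5′ to 3′ along its gene.
Igf1r promoter: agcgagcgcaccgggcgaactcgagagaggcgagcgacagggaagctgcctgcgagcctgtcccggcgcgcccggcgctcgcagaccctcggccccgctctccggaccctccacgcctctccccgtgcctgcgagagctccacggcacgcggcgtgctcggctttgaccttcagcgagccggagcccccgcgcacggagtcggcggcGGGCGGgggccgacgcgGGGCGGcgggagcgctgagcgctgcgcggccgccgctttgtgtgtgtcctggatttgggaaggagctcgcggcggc
Irs2 promoter: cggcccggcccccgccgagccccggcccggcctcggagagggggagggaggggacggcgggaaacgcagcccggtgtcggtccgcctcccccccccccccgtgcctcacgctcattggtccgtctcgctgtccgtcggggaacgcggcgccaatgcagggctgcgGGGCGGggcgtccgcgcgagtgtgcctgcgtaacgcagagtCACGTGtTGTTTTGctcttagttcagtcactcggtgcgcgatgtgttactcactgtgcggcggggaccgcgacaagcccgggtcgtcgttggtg
Irs1 promoter: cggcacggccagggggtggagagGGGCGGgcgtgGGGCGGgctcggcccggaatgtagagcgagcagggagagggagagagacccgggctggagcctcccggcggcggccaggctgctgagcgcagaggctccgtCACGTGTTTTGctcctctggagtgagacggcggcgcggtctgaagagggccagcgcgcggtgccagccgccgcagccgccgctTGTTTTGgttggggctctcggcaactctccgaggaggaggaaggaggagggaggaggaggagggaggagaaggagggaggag

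The window of Irs2 held an E-box starting at position -44 from the annotated start and an insulin response core at -37. That of Irs1 held an E-box at -115 whose end overlaps an insulin response core at -111, and another core at -32. The window of Igf1r held GC boxes at -43 and -26 and none of the other 3 motifs. GC boxes also lay in the windows of Irs2, at -85, and Irs1, at -227 and -216, and in those of Foxo1 and Foxo3. Among the 7 windows the core and the E-box were found only in Irs1 and Irs2, and the letters GTAAACA in none. Of all 32851 RefSeq windows of this length 6.28% held the core, 7.15% the E-box, 3.65% the FoxO element and 35.7% the GC box. GC content was 76.0% for Igf1r, 72.0% for Irs2 and 71.3% for Irs1. A match to these letters is a description of the window and not a bound site. The absence of GTAAACA likewise does not show that a window lacks sequences FoxO proteins could bind.

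Signals are given as log2 of the processed signal minus the array's own 75th percentile, so 0 is the level of a bright probe and negative values are dimmer. Levels of different probes were not read as relative amounts of RNA. Signal was compared between probes to pick a gene's brightest probe, and was added up across probes in the list sums. Genes entered the test when a probe was well above background, by the scanner software's own flag, on at least 4 of 8 arrays. Between fasted and fed crypts limma called 0 of 19516 genes (0%) at a Benjamini-Hochberg adjusted p under 0.05, and the smallest adjusted p was 0.787. Before adjustment 1163 genes (5.96%) had p under 0.05, where chance alone gives 975.8. The groups did not overlap in 964 of 19354 genes with a value on every array (4.98%), 580 higher in fasted crypts (3%) and 384 lower (1.98%). Of the 9 signalling genes 8 were tested, and 0 passed the threshold. Of these 8, 5 had a log2 difference above 0, against 44.6% of all genes tested, and 3 had one below 0. Unadjusted p under 0.05 and groups that did not overlap were found for 2, Igf1r and Irs2. The labels call the arrays biological replicates, and their number, 4 a group, limits the precision of every difference.

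2 arrays stood apart. Fasted replicate 3, scanned on a later day than the others, correlated with the other arrays at only 0.827 to 0.925 over all genes. Fed replicate 4 is labelled female, but Xist was not well above background on it and the Y-linked Eif2s3y was (-1.39, against -5.07 to -5.61 on the other arrays labelled female). The label was kept as given. Without both arrays Igf1r differed by 0.90 (limma adjusted p = 0.595) and Irs2 by -0.48 (adjusted p = 0.511), while Foxo1, Foxo3 and Igfbp4 turned to -0.18, -0.30 and -0.20.

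**Figure D1:**
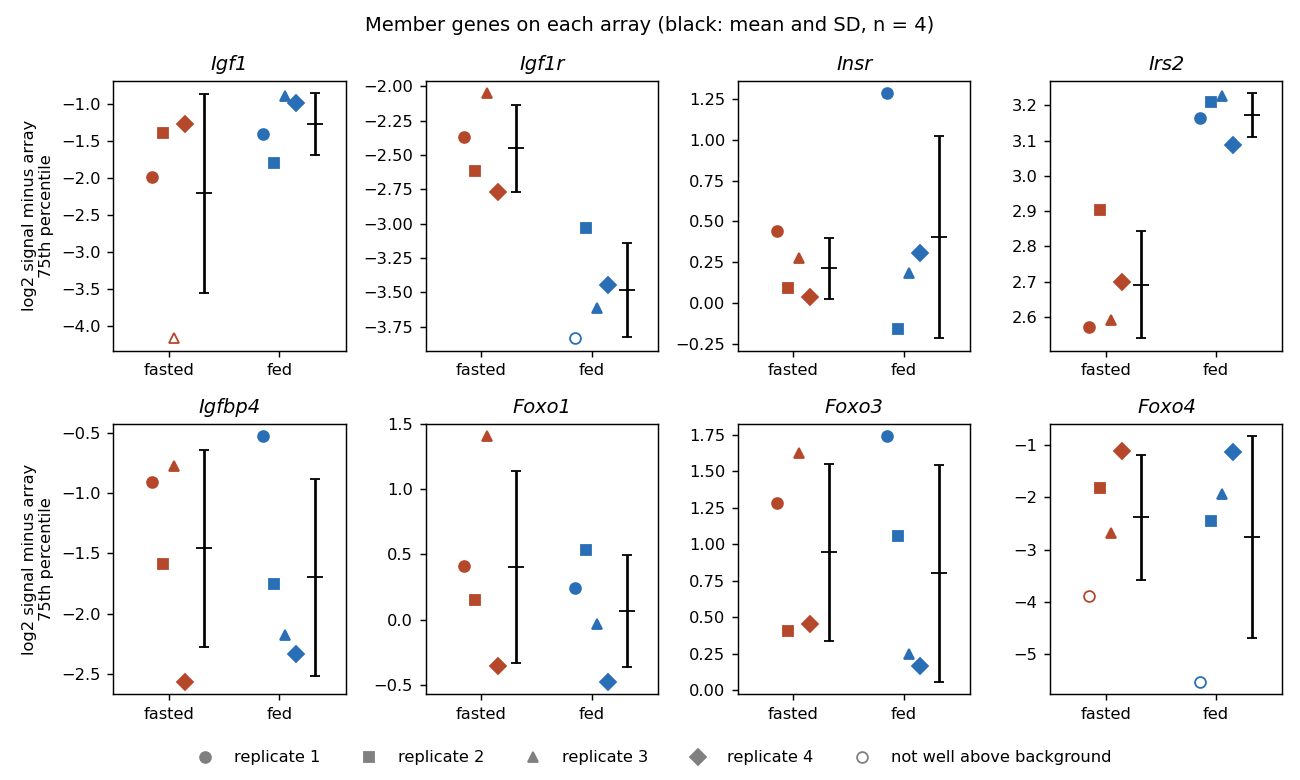
Each panel is 1 gene, with log2 signal minus the array's 75th percentile on the y axis and the 4 fasted (red) and 4 fed (blue) arrays on the x axis. Symbols mark the replicate number, open symbols a probe not well above background, and black bars the mean and SD (n = 4). The fasted arrays all lie above the fed ones for Igf1r and all below them for Irs2, and the groups overlap for the other 6 genes.

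Igf1 encodes the secreted growth factor IGF1. Its measured probe, at chr10:87378456-87378515 in mm9, read -1.98, -1.40, -4.17 and -1.26 in fasted replicates 1 to 4, and -1.41, -1.79, -0.89 and -0.98 in fed replicates 1 to 4. The low fasted value belongs to replicate 3, the 1 array on which the probe was not well above background, and the other 3 fasted arrays overlap the fed range. The fitted log2 difference was -0.94 (SE 0.64, 95% interval -2.41 to 0.54, limma adjusted p = 0.787), with means of -2.20 ± 1.35 on fasted arrays and -1.27 ± 0.42 on fed arrays (SD, n = 4 each). Without fasted replicate 3 it was -0.19. On the 3 slides shared by the groups, which paired fasted replicate 1 with fed 1, fasted 2 with fed 3 and fasted 4 with fed 4, Igf1 differed by -0.58, -0.51 and -0.28. In captures of mixed tissue, fewer cells of a type and less RNA per cell cannot be told apart. Fasted replicate 3 also had the lowest summed signal of leukocyte markers (123, against 180 to 227 on the other fasted and 210 to 275 on the fed arrays). The same held for enteric neuron and glia markers (1.99, against 3.89 to 6.81 on the other fasted and 4.65 to 7.96 on the fed arrays). Such sums mostly follow the probes with the highest signal, here Itgam (6.62 on fasted replicate 3) and Elavl4 (0.36). Itgam, Csf1r, Lyz2, Cd4, Elavl4 and Gfap were lowest on that array. C1qa (1.43), Cd68 (0.53), Itgax (-1.34) and Uchl1 (-2.21) were instead highest on it, and the other markers of these lists lay between. The sum of fibroblast and smooth muscle markers was not low on that array. It was 63.3, against 45.0 to 90.5 on the other fasted arrays and 33.5 to 133 on the fed arrays. The part of any of these cell types in the Igf1 value was not tested.

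The array carries 4 further Igf1 probes, for another transcript of the gene and at higher coordinates on the same strand. None passed the filter. The probe at chr10:87395924-87395983 was well above background on 3 arrays, at -3.21 in fasted replicate 1 and at -1.46 and -3.11 in fed replicates 1 and 2. A probe at chr10:87393581-87393640 was so only on fasted replicate 1, and the remaining 2 on 0 arrays. What is said of Igf1 thus rests on 1 probe of 5.

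Igfbp4 encodes a secreted protein that binds IGFs and is known mainly to hold them back from their receptor. The probe at chr11:98913334-98913393 was well above background on all 8 arrays. It read -0.91, -1.59, -0.78 and -2.56 in fasted replicates 1 to 4, and -0.53, -1.75, -2.18 and -2.33 in fed replicates 1 to 4. The groups overlap almost fully, with fasted replicate 4 lowest and fed replicate 1 highest of all. The fitted difference was 0.24 (SE 0.48, 95% interval -0.85 to 1.33, limma adjusted p = 0.901), and it turned to -0.19 without fasted replicate 3. Within the shared slides it was -0.38, 0.59 and -0.23.

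Igf1r encodes the receptor for IGF1. The probe at chr7:75378461-75378520 read -2.37, -2.62, -2.05 and -2.77 in fasted replicates 1 to 4, and -3.83, -3.03, -3.61 and -3.45 in fed replicates 1 to 4. Every fasted array lay above every fed array, by at least 0.26, and only fed replicate 1 was not well above background. The means were -2.45 ± 0.31 on fasted arrays and -3.48 ± 0.34 on fed arrays (SD, n = 4 each), a fitted difference of 1.03 (SE 0.38, 95% interval 0.16 to 1.90), or 2.04-fold. In limma's test its p ranked 598 among all genes tested and its adjusted p was 0.787.

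On the same slides Igf1r differed by 1.46, 1.00 and 0.67. The probe is dim, and with normexp background correction the difference was 0.36. The groups overlapped with quantile scaling, by 0.10, with median scaling, by 0.01, and with normexp correction. In the authors' deposited matrix the fit gave 1.37 and the groups stayed apart.

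Insr encodes the insulin receptor. Its brightest probe, at chr8:3155472-3155531, read 0.44, 0.09, 0.28 and 0.04 in fasted replicates 1 to 4, and 1.29, -0.16, 0.18 and 0.31 in fed replicates 1 to 4. The fed range encloses the fasted one, and fed replicate 1 stands above all other arrays. The difference was -0.19 (SE 0.32, 95% interval -0.93 to 0.55, limma adjusted p = 0.882), and 0.12 without fed replicate 1. Within the shared slides it was -0.84, -0.09 and -0.27. A second Insr probe, at chr8:3154024-3154083, was well above background on all 8 arrays and ran from -2.14 to -1.52 in fasted and from -1.72 to -1.32 in fed crypts. Its difference was -0.31 (SE 0.27), the same direction with overlapping groups. The remaining Insr probe, at chr8:3151667-3151726, was well above background on 3 arrays only.

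Irs1 and Irs2 encode the main adaptors between these receptors and PI3-kinase. Neither Irs1 probe, at chr1:82229692-82229751 and chr1:82233564-82233623, was well above background on any array, so Irs1 was not tested. Irs2 was read through the coding probe printed above. It stood at 2.57, 2.90, 2.59 and 2.70 in fasted replicates 1 to 4, and at 3.17, 3.21, 3.23 and 3.09 in fed replicates 1 to 4. The fed values sit within a narrow band, and the highest fasted array was 0.18 below the lowest fed one. The means were 2.69 ± 0.15 on fasted arrays and 3.17 ± 0.06 on fed arrays (SD, n = 4 each). The fitted difference was -0.48 (SE 0.16, 95% interval -0.85 to -0.12), a fasted level of 0.716 times the fed level. In limma's test its p ranked 356 among all genes tested and its adjusted p was 0.787.

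On the 3 shared slides Irs2 differed by -0.59, -0.32 and -0.39. Its direction held in all 23 alternatives that gave a value, with a range of -0.55 to -0.38 and an unadjusted p under 0.05 in 19. Many of these could not turn it. Other filters, a fit without sex and a replicate block gave the same difference, and leaving out arrays cannot reverse groups that do not overlap. Whether the groups overlapped depended on the scaling: they stayed apart by 0.07 with quantile scaling, and overlapped with median scaling, with normexp correction and, by 0.003, in the authors' matrix. Igf1r kept its direction in all 22 alternatives that gave one, with an unadjusted p under 0.05 in 14. The same kinds of alternative could not turn Igf1r either.

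**Figure D2:**
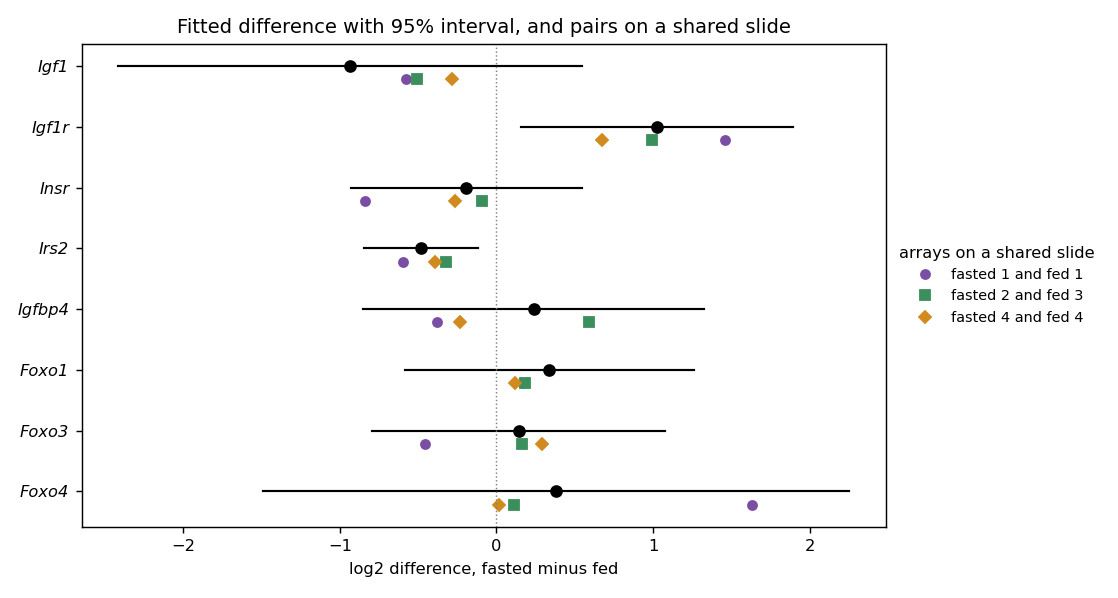
The x axis is the log2 difference, fasted minus fed, for the 8 tested genes. Black points and lines are the limma estimate with its 95% interval, and coloured symbols the difference within each of the 3 slides shared by the groups. The interval lies above 0 for Igf1r and below 0 for Irs2 and includes 0 for the other 6 genes.

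Foxo1, Foxo3 and Foxo4 encode FoxO transcription factors, the proteins that AKT holds in the cytoplasm. Their transcript level does not measure that location. Foxo1, at chr3:52150183-52150242, read 0.41, 0.15, 1.41 and -0.36 in fasted replicates 1 to 4, and 0.24, 0.53, -0.03 and -0.48 in fed replicates 1 to 4. Fasted replicate 3 was the highest array, and the rest of the fasted range lay within the fed range. The difference was 0.34 (SE 0.40, 95% interval -0.59 to 1.26, limma adjusted p = 0.836), and it turned to -0.10 without fasted replicate 3. A second Foxo1 probe, at chr3:52153289-52153348, also had its highest value in fasted replicate 3 (-0.68), with the others from -2.87 to -1.88 in fasted and from -2.47 to -2.11 in fed crypts, and differed by 0.37 (SE 0.47).

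Foxo3 was read at chr10:41905610-41905669, with 1.29, 0.41, 1.63 and 0.46 in fasted replicates 1 to 4, and 1.74, 1.06, 0.25 and 0.16 in fed replicates 1 to 4. Both groups hold high and low arrays. The difference was 0.14 (SE 0.41, 95% interval -0.79 to 1.08, limma adjusted p = 0.936), and it turned to -0.23 without fasted replicate 3. A second Foxo3 probe, at chr10:41967288-41967347, is assigned to another transcript record than the first. It differed by 0.43 (SE 0.46) and ranged from -2.41 to -0.85 in fasted and from -2.60 to -1.43 in fed crypts. Fed replicate 1 was the highest array on the first Foxo3 probe and among the lowest on the second, so the 2 probes ordered the arrays differently.

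Foxo4 had 1 usable probe of 3, at chrX:98451524-98451583, which the files assign to an Ensembl transcript. The other 2, assigned to the RefSeq transcript of the gene, were well above background on 0 arrays. What is said of Foxo4 thus rests on that 1 probe. It read -3.90, -1.82, -2.68 and -1.11 in fasted replicates 1 to 4, and -5.53, -2.45, -1.94 and -1.13 in fed replicates 1 to 4. Replicate 1 of each group was not well above background, and these are the lowest arrays of their groups. The difference was 0.38 (SE 0.82, limma adjusted p = 0.909), with a 95% interval of -1.49 to 2.25 that leaves a wide range of values possible, and it was -0.38 without fed replicate 1. Within the shared slides Foxo4 differed by 1.63, 0.11 and 0.01, the first of these between the 2 dim arrays. Foxo1 differed by 0.17, 0.18 and 0.12 within the same slides, and Foxo3 by -0.45, 0.16 and 0.29.

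The rest of the pathway was described with lists of 106 genes that include the 9, of which 89 were measured. Of these, 48 were higher and 41 lower in fasted crypts, the median log2 difference was 0.03 against -0.06 over all genes tested, and 0 passed the threshold. An unadjusted p under 0.05 was found for 4 on the higher side, where 3.94% of all genes tested had one, and for 3 on the lower side, where 2.02% had one. Groups did not overlap for 2 on each side. Among all genes with a value on every array the share was 3% on the higher and 1.98% on the lower side.

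All 3 measured ligand genes had negative differences, with overlapping groups: Ins2 and Ins1, which encode insulin, were at -0.85 (SE 0.70) and -0.45 (SE 0.46), beside Igf1 at -0.94. Ins2 read 1.57 to 2.57 on fasted replicates 2 and 4 and fed replicates 3 and 4. These were the arrays with the most probes well above background (62.3% to 65.7%). On the other arrays of both groups Ins2 read -0.88 to 0.76, and the part of detection in its difference was not tested. Igf2 was not measured. Of the 4 receptor genes Igf1r alone was higher, and Insrr, encoding an insulin receptor relative, and Igf2r, encoding the receptor that clears IGF2, were at -0.54 (SE 0.50) and -0.11 (SE 0.33). The list medians were -0.85 for ligands, -0.19 without fasted replicate 3, and -0.15 for receptors, 0.16 without fed replicate 1.

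Binding proteins and the proteases that cut them had 8 measured genes, 4 higher and 4 lower, with a median of -0.10 that turned to 0.04 without fasted replicate 3 and fed replicate 4. Igfbp6, encoding a binding protein that prefers IGF2, read -0.80, -1.54, -0.09 and -0.99 in fasted replicates 1 to 4, and -3.70, -1.29, -2.82 and -2.59 in fed replicates 1 to 4. Fed replicate 2 lies inside the fasted range, and the other 3 fed arrays lie below it. The difference was 1.74 (SE 0.55, limma adjusted p = 0.787). Igfbp5, encoding a binding protein made by mesenchyme and muscle among other cells, read -1.67, -2.36, -3.85 and -3.89 in fasted replicates 1 to 4, and 0.61, 0.04, -0.97 and -4.05 in fed replicates 1 to 4. Fed replicate 4 was the lowest array of all and the other 3 fed arrays were the highest. The difference was -1.85 (SE 0.64, limma adjusted p = 0.787), and 2 fasted and 3 fed arrays had the probe well above background. Fed replicate 4 also had the lowest summed signal of fibroblast and smooth muscle markers (33.5, against 98.6 to 133 on the other fed arrays and 45.0 to 90.5 on the fasted arrays), and the part of those cells in the Igfbp5 value was not tested. Igfbp2 was at -0.31 (SE 0.31). Pappa, encoding a protease of IGFBP4, was at -1.16 (SE 1.34) in a fit without fasted replicate 1, which had no value.

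Of 11 measured adaptors and inhibitors 6 were higher and 5 lower (median 0.07, and -0.10 without fasted replicate 3). Irs2 had the smallest p. Shc1, encoding an adaptor to the Ras pathway, was at 0.43 (SE 0.23), Irs3 at -0.54 (SE 0.67) and Sh2b2 at 0.20 (SE 0.27). PI3-kinase and AKT genes split into 10 higher and 5 lower. Their median of 0.22 turned to -0.09 without fasted replicate 3 and fed replicate 4. Pik3r2 and Pik3r1, encoding regulatory subunits of PI3-kinase, were at 0.99 (SE 0.44) and 0.73 (SE 0.36). Phlpp2, encoding a phosphatase that acts on AKT, was at -0.63 (SE 0.32). None of these had an unadjusted p under 0.05 apart from Irs2.

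TORC1 and GSK3 genes, downstream of AKT, had 11 members higher and 6 lower (median 0.09, and -0.08 without those arrays), and 0 genes at an unadjusted p under 0.05 in limma's test. Rptor, encoding the TORC1 subunit Raptor, was at 0.49 (SE 0.28), and Rps6kb1, encoding the S6 kinase, at 0.40 (SE 0.28). Mtor, encoding the kinase itself, was at 0.69 (SE 0.48) but detected on only 3 fasted arrays and 1 fed array. Eif4ebp1, encoding a translation repressor that TORC1 inactivates, was at -0.47 (SE 0.32). Among 9 FoxO factors and cofactors 5 were higher, with a median of 0.11 that turned to -0.30 without the same arrays. Foxo6, another FoxO gene, was at -0.81 (SE 0.36), while Crebbp and Usp7, encoding an acetyltransferase and a deubiquitinase that act on FoxO proteins, were at -0.29 (SE 0.18) and 0.29 (SE 0.19).

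Genes known as FoxO targets, mostly from other tissues, did not lean one way: 12 of 26 measured were higher and 14 lower (median -0.07, and 0.06 without fed replicate 1). Irs2 and Insr are counted here too. Cdkn2b, encoding the cell cycle inhibitor p15, read 0.87, 0.41, 0.86 and 0.18 in fasted replicates 1 to 4, and -0.67, -0.59, -0.13 and -0.34 in fed replicates 1 to 4. Its groups did not overlap, and the difference was 1.01 (SE 0.25, limma adjusted p = 0.787). Bcl2l11, encoding the pro-apoptotic protein BIM, read -2.70, -2.05, -2.24 and -3.12 in fasted replicates 1 to 4, and -1.57, -0.44, -1.46 and -1.89 in fed replicates 1 to 4. Its groups did not overlap either, in the opposite direction, at -1.19 (SE 0.38, limma adjusted p = 0.787).

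Tnfsf10, encoding the death ligand TRAIL, read -1.28, -2.63, -1.86 and -1.46 in fasted replicates 1 to 4, and -5.41, -5.42, -3.73 and -2.23 in fed replicates 1 to 4. All fasted arrays and 1 fed array had it well above background, and that fed array lies inside the fasted range. The difference was 2.39 (SE 0.61, limma adjusted p = 0.787). Eif4ebp1, given above, is on this list as well. The targets Fbxo32, Trim63, Pdk4, Igfbp1, Klf15, Ccng2, Rbl2 and Sesn3 did not pass the filter and were not measured.

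**Figure D3:**
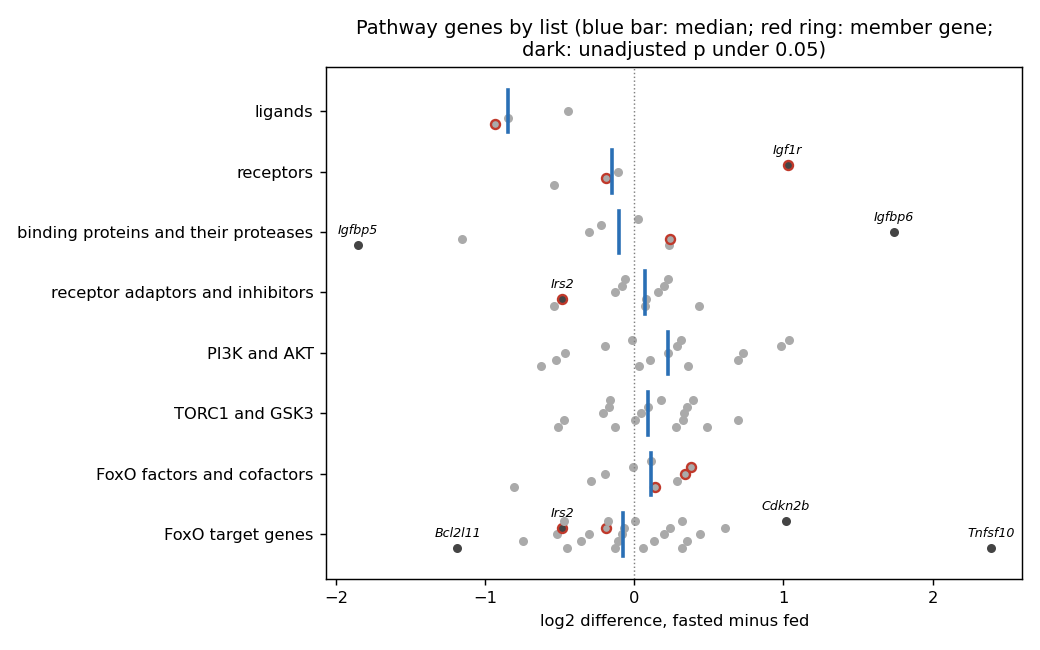
Each point is 1 measured gene of the list on the y axis, at its log2 difference, fasted minus fed, on the x axis. Blue bars are list medians, red rings mark the 9 genes where measured, and dark named points have an unadjusted p under 0.05 in limma's test. Medians run from -0.85 for ligands to 0.22 for PI3-kinase and AKT genes over all arrays, and turn sign for 5 of the 8 lists without fasted replicate 3 and fed replicate 4, and points lie on both sides of 0 in every list but the ligands.

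The captures were checked for the cell types they hold. Absorptive enterocyte markers were higher in fasted crypts in 22 of 22 measured genes, with a median of 1.06, where 44.6% of all genes tested were higher. In limma's test 14 had an unadjusted p under 0.05, where 3.94% of all genes tested had one on the higher side. Of these markers 0 passed the adjusted threshold. Their summed signal, relative to the array's 75th percentile on a linear scale, ran from 180 to 281 in fasted and from 95.1 to 148 in fed crypts. Paneth cell markers were lower in 8 of 9 measured, of 15 listed, with sums of 306 to 355 in fasted and 366 to 566 in fed crypts. These sums did not overlap between the groups, as for Igf1r and Irs2, and their part in the Igf1r and Irs2 values was not tested.

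Among stem cell markers 7 were higher and 8 lower, with sums of 57.7 to 64.6 in fasted and 61.1 to 95.3 in fed crypts. Lgr5 was well above background on 0 arrays, and Olfm4, also a stem cell marker, was at -1.11 (SE 0.24). The Paneth cell lysozyme gene Lyz1 was at -0.28 (SE 0.21) and the brush border gene Vil1 at 0.53 (SE 0.21). Cells outside the epithelium were present: fibroblast and smooth muscle markers had 5 of 14 higher, Col1a1 and Col3a1 were at -0.93 (SE 0.63) and -0.81 (SE 0.52), and leukocyte markers had 3 of 11 higher. Pdgfra, a fibroblast marker, was well above background on all fasted arrays but not on any fed array, so it passed the filter through the fasted arrays alone. Its measured means were -3.10 in fasted and -4.55 in fed crypts (limma adjusted p = 0.787), with a lower bound of 1.59-fold on their ratio. The groups overlapped, with fasted replicate 4 at -3.50 and fed replicate 1 at -3.48. A bound of this kind sets the fasted mean against the lowest signal well above background on each fed array. Where the probe's own signal on a fed array was higher, that signal was used instead. Ptprc and Pecam1, for leukocytes and endothelium, were at 0.05 (SE 0.32) and 0.05 (SE 0.57). Endothelial markers had 3 of 7 higher, goblet 2 of 8, enteroendocrine 7 of 9, neuron and glia 3 of 6 and proliferation genes 8 of 11. Cd3g, for T cells, and the proliferation gene Top2a were well above background on 0 arrays.

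Likeness between genes was described by the Pearson correlation r over the 8 arrays against 19353 genes. The closest genes named leave out clone, accession and predicted-gene names and the examined genes themselves. The arrays share slides and signal level, so these values name patterns and test nothing. Igf1r was most like Nup62 (r = 0.993, Spearman rho = 1) and Sipa1l1 (0.981, 0.976), and Irs2 most like Maml3 (0.979, 0.976) and Lmtk2 (0.943, 0.952). Igf1 was closest to Ctrl (0.995, 0.952) and Fam234b (0.995, 0.976), and Igfbp4 to Cnot7 (0.992, 1) and Repin1 (0.989, 1). Insr had lower maxima, with Mptx1 (0.956, 0.833) and Sdsl (0.948, 0.762). Foxo1 was closest to Ndufa12 (0.986, 1) and Zkscan6 (0.984, 1), Foxo3 to Hnrnpul1 (0.985, 0.929) and Zw10 (0.985, 0.976), and Foxo4 to Lypd2 (0.982, 0.929) and Spag1 (0.962, 0.810).

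**Figure D4:**
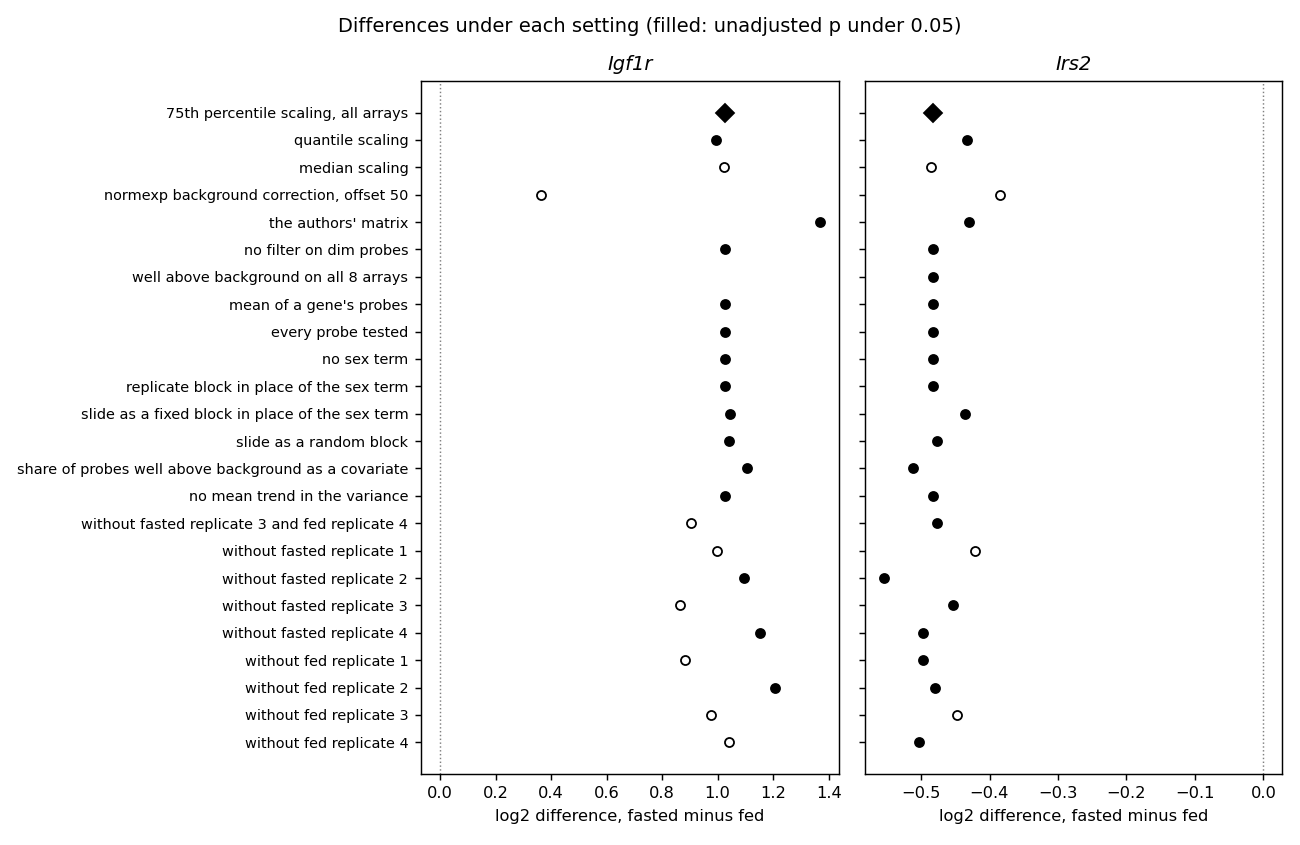
The y axis lists the ways of processing the arrays and the x axis gives the log2 difference, fasted minus fed, for Igf1r and Irs2. The diamond is the value reported, and filled symbols have an unadjusted p under 0.05 in limma's test. Igf1r runs from 0.36 with normexp correction to 1.37 in the authors' matrix, Irs2 from -0.55 to -0.38, and neither crosses 0. Igf1r has no value under the filter that asks for all 8 arrays well above background.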

How the data were processed

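RNA from laser-captured jejunal lower crypts was hybridised, with Cy5, to Agilent mouse arrays, as the labels' protocols state. Deposited by the authors were scanner files of linear, background-subtracted intensity (Feature Extraction 11.5.1.1, per the submitters' processing notes) and a matrix of log2 values, in the same direction as the scanner signal, with column medians of 7.73 to 8.33. Its scaling and centring are unknown, and it was used as an alternative.

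Control spots and outlier spots were left out, spots of a probe were averaged, and log2(processed signal) minus the array's 75th percentile was taken. No spot was saturated, and 53.2% to 65.7% of probes per array were well above background (61.1 ± 5.36 fasted, 58.5 ± 4.82 fed, SD, n = 4 each). A gene's brightest probe stood for it, among probes flagged well above background on 4 or more of the 8 arrays. RefSeq (GRCm38.p6) named 27655 probes and the files the other 11774. Probe coordinates are those of the files, in mm9. Genes were tested in limma 3.58.1 (R 4.3.3; lmFit, and eBayes with a mean trend) with group and labelled sex, adjusting over all genes, and the script was tested on simulated data. No 2 arrays held identical values. The genes and lists were chosen with earlier results of these data known. Named genes are the 9, up to 4 genes per pathway list with the smallest p, the 2 genes most like each measured gene, and set markers. Some genes that this rule takes are left out of the text.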

Additional observations from a re-analysis of the deposited data

Results flagged for a closer look

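The 4 arrays of each group were searched for 1 that lay far from the other 3, by its gap to the nearest divided by the whole range, against Dixon's 95% critical value. This was done 58 times in all, for the 11 probes of the 9 genes that passed the filter and for the summed signal of every gene list. Chance gives about 1 such finding in 20 groups, and 4 were found, all in summed signals. The summed signal of PI3-kinase and AKT genes had 1 array far from the rest in both groups: fasted replicate 3 at 49.1, with the other fasted arrays at 32.1 to 33.1 (ratio 0.942), and fed replicate 4 at 30.6, with the other fed arrays at 37.1 to 38.1 (ratio 0.874). In the fed group the enterocyte marker sum was 95.1 in replicate 2 and 142 to 148 in the others (ratio 0.889), and the goblet marker sum was 278 in replicate 3 and 247 to 249 in the others (ratio 0.923).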

How the results depend on the processing

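The count of genes past the threshold was 0 in all 24 alternatives run with limma, and the smallest adjusted p ranged from 0.0675, with each array's percentage of detected probes as a covariate, to 0.998, without fasted replicate 1. Genes at an unadjusted p under 0.05 numbered 5456 with that covariate, 3068 with slide as a random block, 2525 with slide as a fixed block and 1753 without fasted replicate 3 and fed replicate 4, against 1163 as reported. In the covariate fit the adjusted p was 0.0678 for Igf1 (-1.39), 0.0903 for Igf1r and 0.0748 for Irs2. Of the genes at an unadjusted p under 0.05, 66.1% were higher in fasted crypts, and 54% with median scaling. The gene differences kept their sign in 167 of 181 comparisons with an alternative. Other filters, a fit without sex and a replicate block left each difference as it was, so these comparisons could not turn a sign. Igfbp4 was -0.0058 with slide as a fixed block and -0.0373 as a random block, Foxo3 was -0.00211 with the random block, and Foxo4 was -0.0725 with the covariate. Without fasted replicate 3 and fed replicate 4, Igfbp4 was -0.20, Foxo1 -0.18 and Foxo3 -0.30, and list medians were -0.19 for ligands, -0.20 for adaptors and -0.36 for enteroendocrine markers. There the medians also turned to -0.30 for FoxO factors and cofactors, -0.09 for PI3-kinase and AKT, -0.08 for TORC1 and GSK3 and 0.04 for binding proteins. Leaving out 1 array at a time gave -1.35 to -0.19 for Igf1, 0.87 to 1.21 for Igf1r, -0.46 to 0.12 for Insr, -0.55 to -0.42 for Irs2, -0.19 to 0.55 for Igfbp4, -0.10 to 0.60 for Foxo1, -0.23 to 0.46 for Foxo3, -0.38 to 0.85 for Foxo4 , and medians of -1.22 to -0.19 for ligands, -0.10 to 0.20 for adaptors and -0.19 to 0.49 for enteroendocrine markers. The count of probes whose groups did not overlap, 2 as reported, was 1 with quantile scaling, in the authors' matrix and with probes well above background on all 8 arrays, and 0 with median scaling and with normexp. The Paneth median was -0.15 with quantile scaling. The cause of these shifts was not tested.

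Same-numbered arrays deviated together with correlations of 0.372, -0.469, -0.446 and 0.606. The pairs at 0.372 and 0.606 also shared a slide, as did fasted replicate 2 and fed replicate 3, at 0.536. For these pairs a shared number cannot be told apart from a shared slide. The labels do not state that the numbers pair mice, and the correlations do not settle it. With the replicate block replacing the sex term 0 genes passed, 1112 had an unadjusted p under 0.05, Igf1r differed by 1.03 (adjusted p = 0.753) and Irs2 by -0.48. No fit with the sex label of fed replicate 4 changed was run. Dim probes (Igf1r, Foxo4, Igf1 and all of Irs1) limit what could be measured.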
